A study of Oryza sativa with 18 samples.

Results

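A set of 300 rice genes was less abundant in callus of pOE, a line that overexpresses BOC1, than in 2 groups of Teqing callus. Teqing is the parent cultivar of pOE. The members were chosen by their measured values. Among the 36844 annotated genes shared by the pCPL and pOE tables, 12154 had at least 5 FPKM (fragments counted on a gene, scaled to its length in kilobases and to the sequencing depth) in the lowest of the 6 Teqing2 and Teqing3 libraries. In 397 of them this lowest Teqing value was more than 2 times the highest of the 3 pOE libraries, and the 300 with the largest ratio of the lowest Teqing value to the highest pOE value plus 1 were kept. The low level in pOE is therefore a description of how the genes were selected, and no test is attached to it. All callus in the study had been subcultured for 21 days. The pOE line is Teqing carrying the YIL25 coding sequence of BOC1 behind the Ubiquitin promoter, and pCPL is Teqing carrying the genomic BOC1 fragment of YIL25 with its own flanking regions. YIL25 is an introgression line, mostly Teqing, with segments of the wild rice Oryza rufipogon on the short arms of chromosomes 2, 3 and 5, the segment on chromosome 3 including BOC1. Each line was compared with its own group of Teqing callus, called Teqing3 for pOE, Teqing2 for pCPL and Teqing1 for YIL25. Each of the 6 groups had 3 libraries. The labels do not say whether the Teqing groups differed in culture or in sequencing. Several transgenic plants of pCPL and of pOE were obtained, and which of them gave the sequenced callus is not stated in the labels, so an effect of the line and of its insertion cannot be told apart.

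Callus is a mass of unorganised dividing cells grown on medium with auxin, here from the scutellum of mature seeds in the dark, and callus of indica rice such as Teqing tends to turn brown and die. BOC1 encodes a protein of the SRO family, plant proteins related to Arabidopsis RCD1 and known from responses to oxidative stress. Among the gene families met below, late embryogenesis abundant (LEA) proteins and dehydrins are hydrophilic proteins that accumulate in maturing seeds and in drying or osmotically stressed tissue and protect other proteins and membranes. Glutathione S-transferases join glutathione to reactive compounds, and aldehyde dehydrogenases oxidise reactive aldehydes, among them products of lipid peroxidation.

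BOC1 itself (Os03g0230300, LOC_Os03g12820, chromosome 3 from 6895178 to 6898348 in IRGSP-1.0) was at 579 ± 4.42 FPKM in pOE and 102 ± 1.38 FPKM in pCPL, against 65.5 ± 2.65 FPKM in Teqing3 and 57.6 ± 0.324 FPKM in Teqing2 (SD, n = 3 libraries, as for every mean that follows). The transgenic labels thus match the level of the introduced gene. In the pCPL and pOE tables the libraries held between 16620557 and 26298032 reads over genes. Over the joined genes the correlation of log2(FPKM + 1) was 0.991 to 0.995 within groups and 0.908 to 0.969 between groups, and the Teqing3 and Teqing2 libraries correlated at 0.921 to 0.924, so the 2 groups of Teqing callus also differed from each other. The YIL25 table holds chromosome 1, chromosome 2 and the start of chromosome 3, and lists 96 of the members. The depth of the YIL25 and Teqing1 libraries was not derived here, since their table covers part of the genome. No gene of green tissue, endosperm or meristem could be found by description, so the tissue label was not checked against markers. In whole callus, fewer cells of a type and less RNA per cell cannot be told apart.

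The members covered a wide range of levels. The mean over the 6 Teqing libraries had a median of 47.3 FPKM across members and ran between 5.55 and 6893 FPKM, and 74 members were above 100 FPKM. In pOE the median of the members was 8.19 FPKM, and in pCPL it was 32.9 FPKM. The 96 members listed in the YIL25 table had a median of 39.9 FPKM in YIL25, against 35.8 FPKM in Teqing1. The Teqing mean divided by the pOE mean had a median of 5.71 and ran from 2.26 to 315, and 20 members had a ratio of the lowest Teqing value to the highest pOE value plus 1 above 10. In pOE, 26 members were below 1 FPKM in all 3 libraries, and none was at 0 in all 3. The log2 fold change of pOE over Teqing3, on the log2(FPKM + 1) scale that understates changes of weakly expressed genes, had a median of -2.17 and lay between -5.97 and -1.09. All 300 members were called lower in pOE than Teqing3 at a fold change of 2 and a limma adjusted p under 0.001, beside 8.9% of all genes tested, which only restates the selection.

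**Figure D1:**
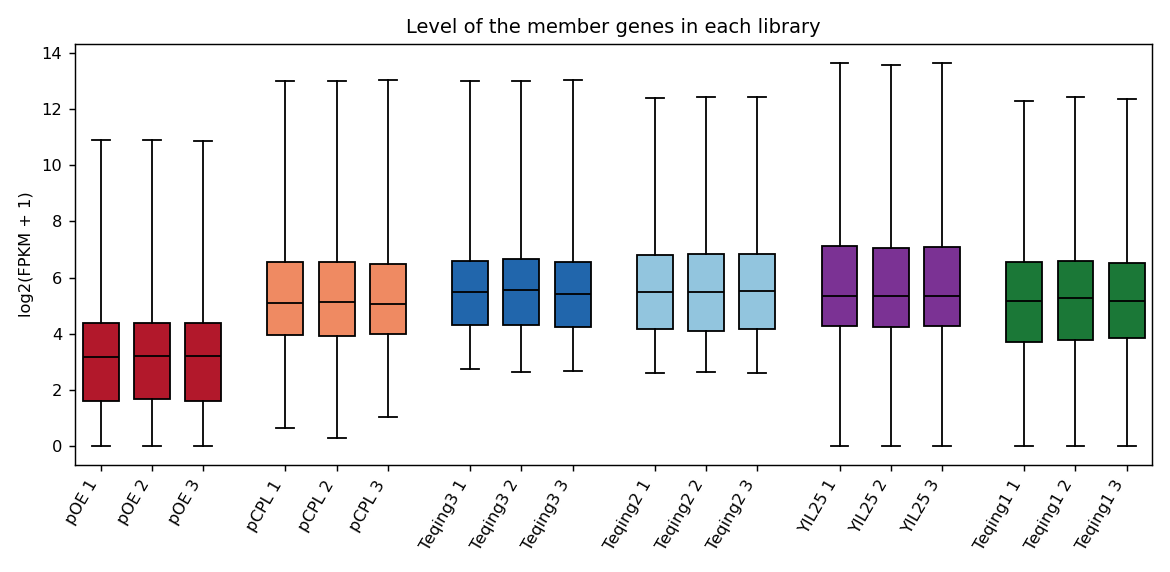
Level of the members in each library, as log2(FPKM + 1) on the vertical axis, with 1 box per library (300 members in pOE, pCPL, Teqing3 and Teqing2, and the 96 listed members in YIL25 and Teqing1). Boxes span the quartiles, the line is the median, whiskers reach the lowest and the highest member. The pOE boxes sit low because the members were selected for it. The rule did not use the pCPL, YIL25 and Teqing1 libraries. By means over libraries, the median of the members was 32.9 FPKM in pCPL, against 47.3 FPKM in Teqing2 and Teqing3 together.

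The member with the largest ratio was Os09g0457400 (chromosome 9, 17288993 to 17291252), at 0.341, 0.519 and 0.158 FPKM in pOE, against 58.7, 57.5 and 56.7 FPKM in Teqing3 and 159, 161 and 149.6 FPKM in Teqing2. These levels rest on 37 recovered reads in the 3 pOE libraries and 6528 in the 3 Teqing3 libraries. The spread between its pOE libraries was small beside the gap to Teqing, a gap that the choice by the largest ratio favours. Os04g0362375 (a gene with no MSU locus, chromosome 4, 17357016 to 17359831) had 1.71, 1.91 and 1.84 FPKM in pOE, against 150.0, 149 and 142 FPKM in Teqing3 and 91.4, 93.1 and 92.9 FPKM in Teqing2. Os02g0583700 (chromosome 2, 22509550 to 22510620) had 0, 0.496 and 0.273 FPKM in pOE, against 62.4, 61.6 and 71.2 FPKM in Teqing3 and 30.9, 30.5 and 35.1 FPKM in Teqing2. The wide gap of both Teqing groups to pOE in these genes follows from their choice by the largest ratio. The Teqing groups themselves also differed. Os03g0346200 (chromosome 3, 12930461 to 12930788) had 2.56, 2.61 and 2.66 FPKM in pOE, against 80.5, 91.5 and 72.7 FPKM in Teqing3 and 58.8, 62.0 and 59.5 FPKM in Teqing2. Neither the files nor the study's lists describe what these 4 genes encode, and the same holds for 291 of the 300 members, which are given here by identifier only.

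The most abundant member was Os01g0200700 (chromosome 1, 5478545 to 5479749), with 1914, 1896 and 1876 FPKM in pOE, against 8238, 8282 and 8426 FPKM in Teqing3 and 5417, 5509 and 5486 FPKM in Teqing2. It remained strongly expressed in pOE, above the level of most members in Teqing. Os08g0473600 and Os08g0473900, which lie close together on chromosome 8 (23335167 to 23337076 and 23341289 to 23343299), were both abundant in Teqing and far lower in pOE. Os08g0473600 had 69.8, 66.0 and 66.6 FPKM in pOE, against 1989, 2023 and 1898 FPKM in Teqing3 and 2778, 2778 and 2823 FPKM in Teqing2. Os08g0473900 had 49.3, 42.6 and 50.7 FPKM in pOE, against 954, 987 and 955 FPKM in Teqing3 and 2753, 2727 and 2703 FPKM in Teqing2. The Teqing2 libraries were higher than the Teqing3 libraries in both genes, by a wide margin in Os08g0473900. Os05g0111300 averaged 477 ± 13.7 FPKM in pOE, against 3350.3 ± 301 FPKM in Teqing3 and 2731 ± 52.3 FPKM in Teqing2. Os03g0655400 averaged 420.2 ± 19.0 FPKM in pOE, against 1159 ± 55.4 FPKM in Teqing3 and 1280.4 ± 38.2 FPKM in Teqing2. Os05g0426000 averaged 44.1 ± 2.10 FPKM in pOE, against 541 ± 2.91 FPKM in Teqing3 and 1332 ± 18.7 FPKM in Teqing2.

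Only 9 members carried a description, because descriptions were at hand only for the genes of the study's own lists. All 9 came from its list of genes that were higher in YIL25 and pCPL and lower in pOE, a list made on these same libraries, so their direction in pCPL and YIL25 is not independent evidence, and their place in a set chosen for a low level in pOE is in part fixed by that list. They were 9 of the 778 joined genes with a description. Of 34 lists of descriptive words, 3 had a member. The other 291 members have no description, so a list without a member does not show that its family is absent. LEA, dehydrin and seed maturation proteins made up the largest of these 3 lists, with 4 described genes, all 4 of which were members. The matching of words was changed after the first hits had been seen. Of the 4 described aldehyde dehydrogenases and reductases 1 was a member, and of the 3 described glutathione S-transferases 1 was a member. Of the 9 described members, 8 were called higher in pCPL than Teqing2 and 1, Os02g0541325, was called lower. This gene thus went against the direction of the study's list in pCPL. In YIL25 over Teqing1 its log2 fold change was 0.47, and it was not called.

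The 4 seed-type members were lowest in pOE, intermediate in both groups of Teqing callus and highest in pCPL, with no overlap between pCPL and the Teqing libraries. They had a description only because the study listed them as higher in YIL25 and pCPL and lower in pOE in these same libraries. This direction was thus in large part set in advance, and the p-values below are no independent evidence of it. Os05g0349800, a small hydrophilic plant seed protein (chromosome 5, 16518577 to 16519493), had 4.36, 4.29 and 6.04 FPKM in pOE and 353, 339 and 352 FPKM in pCPL, against 72.2, 74.4 and 78.5 FPKM in Teqing3 and 67.0, 67.4 and 66.0 FPKM in Teqing2. Its log2 fold change of pCPL over Teqing2 was 2.36 (SE 0.03, adjusted p = 4.00e-11 by limma). Os04g0589800, a group 1 LEA protein (chromosome 4, 29811954 to 29812662), had 20.3, 18.0 and 17.8 FPKM in pOE and 738, 707 and 767 FPKM in pCPL, against 262, 291 and 250.4 FPKM in Teqing3 and 196, 200.5 and 209 FPKM in Teqing2. It rose in pCPL by 1.87 on the log2 scale. Os01g0705200, a group 3 LEA protein (chromosome 1, 29233040 to 29234256), had 31.7, 27.1 and 28.3 FPKM in pOE and 747, 748 and 776 FPKM in pCPL, against 293, 318 and 302 FPKM in Teqing3 and 301, 296 and 303 FPKM in Teqing2. It rose by 1.33 in pCPL, and it was the only 1 of the 4 that the YIL25 table lists. There it had 1405, 1435 and 1420.5 FPKM in YIL25, against 479.5, 507 and 487 FPKM in Teqing1, a log2 fold change of 1.53 (SE 0.03, adjusted p = 1.59e-07 by limma). The dehydrin Os11g0454200 (chromosome 11, 15336192 to 15337158) had 0.747, 1.23 and 0.887 FPKM in pOE and 36.4, 38.3 and 34.3 FPKM in pCPL, against 11.0, 11.2 and 11.3 FPKM in Teqing3 and 9.33, 11.7 and 11.7 FPKM in Teqing2, with a rise in pCPL of 1.65.

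The next expressed gene beside the dehydrin, Os11g0454300 (chromosome 11, 15342877 to 15343671), followed the same order at a higher level. It had 0.920, 0.315 and 0.789 FPKM in pOE and 285, 257 and 267 FPKM in pCPL, against 97.8, 110.3 and 100.1 FPKM in Teqing3 and 48.7, 43.2 and 47.3 FPKM in Teqing2. The pOE values rest on 32 recovered reads in the 3 libraries, against 5037 in Teqing3. Its log2 fold change of pCPL over Teqing2 was 2.51 (SE 0.05, adjusted p = 4.74e-10 by limma). Os05g0171200, described as embryo-specific 3, was a weaker member, with 0.846, 1.12 and 1.26 FPKM in pOE and 15.9, 17.4 and 16.3 FPKM in pCPL, against 19.5, 17.3 and 14.3 FPKM in Teqing3 and 6.94, 5.15 and 5.05 FPKM in Teqing2. Its pCPL libraries were above those of Teqing2 and within the range of Teqing3.

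The glutathione S-transferase Os10g0528100 (chromosome 10, 20551209 to 20552361) had 1.22, 2.26 and 1.73 FPKM in pOE and 117, 114 and 116 FPKM in pCPL, against 159, 168 and 157 FPKM in Teqing3 and 47.7, 47.6 and 46.6 FPKM in Teqing2. It was called higher in pCPL than Teqing2, by 1.27 on the log2 scale, yet every pCPL library was below every Teqing3 library. Its neighbour Os10g0528300, which carries no description, had 1.03, 1.13 and 1.34 FPKM in pOE and 151, 148 and 157 FPKM in pCPL, against 119, 117 and 111 FPKM in Teqing3 and 54.4, 58.4 and 67.8 FPKM in Teqing2. Both genes thus showed the same order of pOE below Teqing2 below Teqing3. The aldehyde dehydrogenase Os02g0730000 (chromosome 2, 30392547 to 30396729) had 26.3, 28.8 and 26.0 FPKM in pOE and 840.2, 887 and 831 FPKM in pCPL, against 868, 822 and 817 FPKM in Teqing3 and 335, 318 and 366 FPKM in Teqing2. Its pCPL libraries overlapped those of Teqing3. In the YIL25 table it had 1646, 1684 and 1623 FPKM in YIL25, against 203, 241 and 204 FPKM in Teqing1, a log2 fold change of 2.93 (SE 0.07, adjusted p = 3.47e-07 by limma). A decarboxylase, Os02g0541325, was the described member called lower in pCPL, with 174, 179 and 183 FPKM in pOE and 356, 356 and 355 FPKM in pCPL, against 465, 445 and 469 FPKM in Teqing3 and 873, 838 and 851 FPKM in Teqing2.

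The ninth described member, Os12g0506700, is annotated only as an expressed protein (chromosome 12, 19434492 to 19438009). It had 1.63, 1.34 and 1.61 FPKM in pOE and 32.5, 32.7 and 31.0 FPKM in pCPL, against 17.0, 18.7 and 17.4 FPKM in Teqing3 and 9.78, 8.32 and 8.35 FPKM in Teqing2. Its pCPL libraries were above all 6 Teqing libraries, as in the seed-type members, and it rose by 1.76 on the log2 scale over Teqing2.

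**Figure D2:**
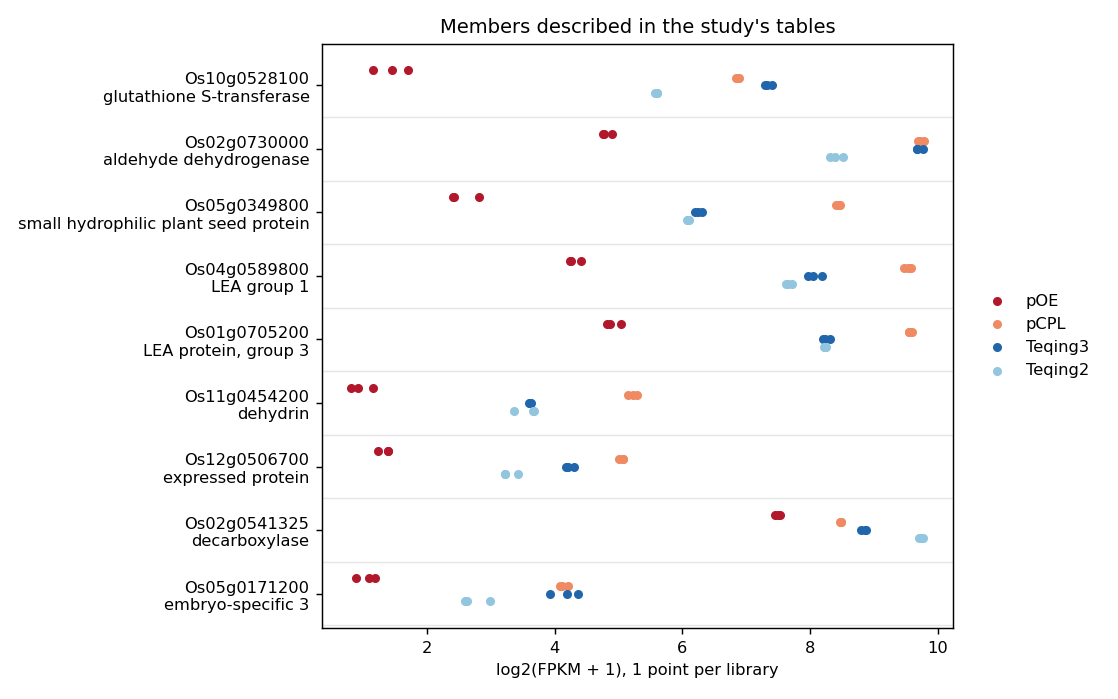
Levels of the 9 described members, as log2(FPKM + 1) on the horizontal axis, with 1 point per library and the groups pOE, pCPL, Teqing3 and Teqing2 in 4 colours. In every gene the pOE points lie furthest left. The rule required this against the Teqing points and did not use pCPL. In the 4 LEA, dehydrin and seed protein genes the pCPL points lie to the right of all Teqing points. All 9 genes come from the study's list, which asked for a higher level in pCPL.

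Whether the members also differed in pCPL, where BOC1 was raised less, was read from the pCPL libraries, which the rule did not use. The Teqing2 libraries on the other side of this comparison were used by the rule, so it is only in part independent of the selection. The p-values measure the spread between the 3 libraries of a group, and SE is the standard error of a log2 fold change. Of the 300 members, 89 (29.7%) were called lower in pCPL than Teqing2 at a fold change of 2 and a limma adjusted p under 0.001, beside 5.97% of all 21659 genes tested. In the other direction, 42 members (14.0%) were called higher in pCPL, beside 7.84% of all genes. Both shares were above those of all genes, and more members were called lower than higher. The genes tested include weaker ones, from 1 FPKM in either group, whose changes this scale understates. The shares are therefore not matched to the members by level. The median log2 fold change of the members was -0.41, with quartiles of -1.14 and 0.33, beside a median of -0.01 over all genes, and 34.0% of members were above 0, beside 49.3% of all genes.

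Because Teqing2 and Teqing3 differed, the pCPL libraries were also set against the 6 Teqing libraries together, as a description. In 166 members (55.3%) all 3 pCPL libraries were below all 6 Teqing libraries, beside 17.6% of the 12154 genes with at least 5 FPKM in Teqing. In 58 members (19.3%) they were above all 6, beside 12.8% of those genes, and in the remaining 76 they overlapped the range of Teqing. Of the 166, 160 lay in the gap between pOE and Teqing that the rule itself opens, 4 overlapped the pOE libraries and 2 were below them. A stricter count asks for a margin of 2 times. In 34 members (11.3%) every pCPL library was under the lowest Teqing library divided by 2, beside 0.658% of genes, and in 24 members (8.0%) every pCPL library was more than 2 times the highest Teqing library, beside 0.428% of genes. Both counts share the 6 Teqing libraries with the rule. Of the 42 members called higher in pCPL than Teqing2, 35 were above all 6 Teqing libraries, and of the 89 called lower, 87 were below all 6.

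**Figure D3:**
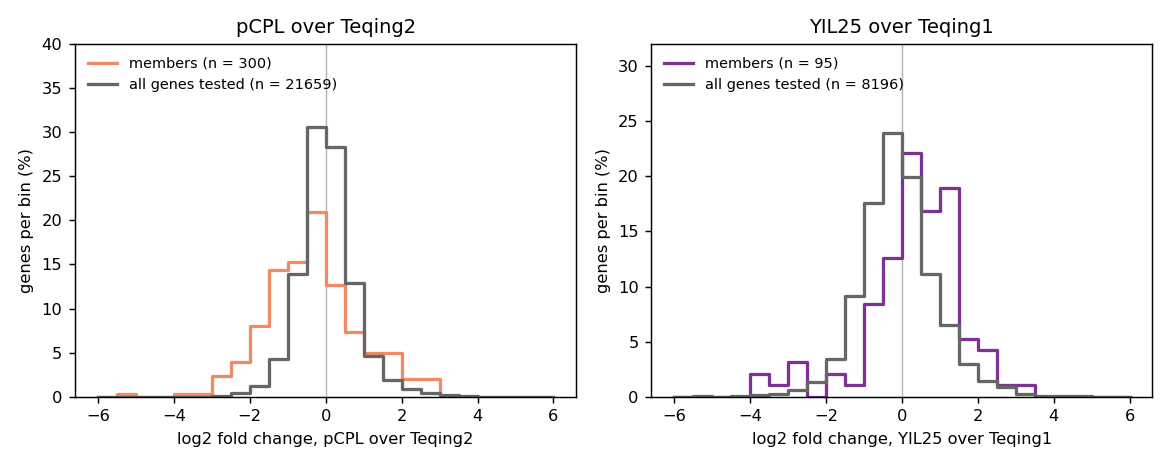
Distribution of the log2 fold change, on the log2(FPKM + 1) scale, of pCPL over Teqing2 (left) and of YIL25 over Teqing1 (right), as the percentage of genes per bin, for the members (coloured) and all genes tested (grey). The members of the left panel are shifted to a median of -0.41, with a larger share than all genes at both ends, and those of the right panel are shifted to a median of 0.47.

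The 6 members with the largest rises in pCPL over Teqing2 and groups that do not overlap were Os03g0168100, Os08g0131200, Os01g0772900, Os01g0644200, Os10g0505900 and Os11g0454300, with log2 fold changes of 2.99, 2.83, 2.81, 2.62, 2.62 and 2.51. All 6 were above all 6 Teqing libraries. Os03g0168100 (chromosome 3, 3678292 to 3679969) had 1.48, 2.23 and 2.43 FPKM in pOE and 105, 105 and 101 FPKM in pCPL, against 37.0, 41.6 and 35.6 FPKM in Teqing3 and 11.7, 12.3 and 12.5 FPKM in Teqing2. Os08g0131200 (chromosome 8, 1755976 to 1757069) had 5.87, 3.18 and 5.10 FPKM in pOE and 155, 167 and 166 FPKM in pCPL, against 100.4, 122 and 108 FPKM in Teqing3 and 21.4, 20.5 and 24.1 FPKM in Teqing2. In each of the 6 genes Teqing2 was the lower of the 2 groups of Teqing callus, so the distance of pCPL from Teqing3 was smaller than the fold change states. Os01g0159600 (chromosome 1, 3124369 to 3125331) was among the members with the most extreme ratio, and there the Teqing3 and Teqing2 libraries overlapped. It had 0.0547, 0.262 and 0.101 FPKM in pOE and 95.7, 101 and 102 FPKM in pCPL, against 21.0, 22.6 and 20.3 FPKM in Teqing3 and 20.0, 19.1 and 20.6 FPKM in Teqing2. Its rise in pCPL was 2.27 (SE 0.05, adjusted p = 3.75e-10 by limma), and its pOE values rest on 8 recovered reads in the 3 libraries, against 1257 in Teqing3.

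The 6 members with the largest falls in pCPL were Os04g0364800, Os01g0313600, Os12g0437800, Os09g0457400, Os08g0478466 and Os06g0162800, with log2 fold changes of -5.43, -3.56, -3.47, -2.97, -2.84 and -2.82. In all 6 every pCPL library was below all 6 Teqing libraries, and in all but Os08g0478466 every pCPL library was also under the lowest Teqing library divided by 2. Os04g0364800 (chromosome 4, 17560683 to 17561234) was nearly silent in both transgenic lines, with 0.421, 0.162 and 0.856 FPKM in pOE and 0.552, 0.219 and 1.05 FPKM in pCPL, against 35.2, 42.6 and 33.8 FPKM in Teqing3 and 64.4, 68.6 and 66.9 FPKM in Teqing2. Os12g0437800 (chromosome 12, 14411366 to 14412019) had 36.0, 31.0 and 24.9 FPKM in pOE and 113, 112 and 114 FPKM in pCPL, against 264, 298 and 269 FPKM in Teqing3 and 1293, 1255 and 1238 FPKM in Teqing2. In Os04g0364800 the pCPL and pOE libraries overlapped, whereas in Os12g0437800 pCPL lay between pOE and Teqing. Os06g0162800 (chromosome 6, 3162860 to 3169331) was 1 of the 2 members with every pCPL library below every pOE library (the other, Os11g0113700, is named after its values were seen), at 6.02, 5.73 and 4.88 FPKM in pOE and 3.64, 3.13 and 4.84 FPKM in pCPL, against 15.3, 17.4 and 15.3 FPKM in Teqing3 and 34.6, 30.6 and 34.1 FPKM in Teqing2. Among the abundant members, Os08g0473900 fell in pCPL to 563, 552 and 582 FPKM, a log2 fold change of -2.27 (SE 0.03, adjusted p = 2.83e-11 by limma), and Os05g0426000 to 361, 342 and 341 FPKM, a log2 fold change of -1.93. The neighbour of the first, Os08g0473600, had 1997, 2027 and 2006 FPKM in pCPL, overlapping the Teqing3 libraries.

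The other genes of these groups of 6 repeated the pattern at different levels. Os01g0772900 had 5.94, 5.20 and 8.07 FPKM in pOE and 211, 217 and 217 FPKM in pCPL, against 91.9, 105 and 90.3 FPKM in Teqing3 and 30.3, 31.0 and 28.2 FPKM in Teqing2. Os01g0644200, a gene with no MSU locus, had 1.28, 1.07 and 0.664 FPKM in pOE and 46.4, 45.3 and 50.9 FPKM in pCPL, against 18.5, 20.0 and 18.8 FPKM in Teqing3 and 6.39, 7.08 and 7.14 FPKM in Teqing2. In the YIL25 table the first had a log2 fold change of 0.24 and the second one of -0.89, and neither was called there. Os10g0505900 had 2.26, 1.83 and 2.19 FPKM in pOE and 68.0, 64.4 and 70.3 FPKM in pCPL, against 44.0, 45.3 and 39.4 FPKM in Teqing3 and 9.75, 10.6 and 10.2 FPKM in Teqing2. Among the genes that fell, Os08g0478466 had 12.5, 12.6 and 11.5 FPKM in pOE and 20.7, 20.1 and 19.0 FPKM in pCPL, against 40.9, 46.1 and 39.5 FPKM in Teqing3 and 144, 145 and 157 FPKM in Teqing2. Os09g0457400 had 18.5, 20.2 and 18.5 FPKM in pCPL, far above its pOE level and far below both groups of Teqing callus.

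**Figure D4:**
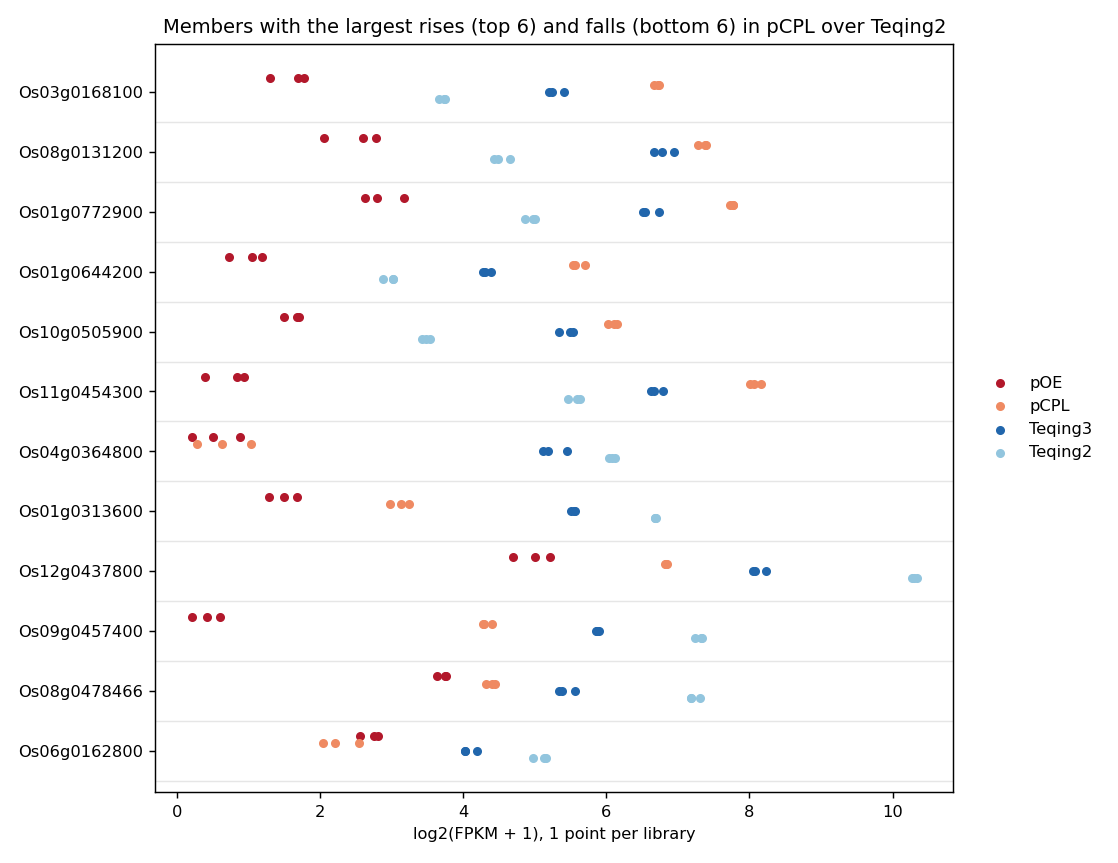
Levels of the 6 members with the largest rises and the 6 with the largest falls in pCPL over Teqing2, as log2(FPKM + 1) on the horizontal axis, with 1 point per library and the groups pOE, pCPL, Teqing3 and Teqing2 in 4 colours. In the upper 6 genes the pCPL points lie right of all Teqing points and the Teqing2 points left of Teqing3. In the lower 6 the pCPL points lie left of all Teqing points and the Teqing2 points right of Teqing3.

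Members that moved in opposite ways in pCPL differed in other measures too, given here as descriptions. The 42 called higher in pCPL had a median gene length of 937 bases, and the 89 called lower a median of 1379 bases. The median length was 1263.5 bases over all members, against 1545 bases over the 12154 genes with at least 5 FPKM in Teqing. The median log2 ratio of Teqing3 over Teqing2 was 0.56 in the members called higher, -0.61 in those called lower and 0.06 in those not called. Teqing2 was therefore low in the members called higher and high in those called lower, and the part of this difference between the Teqing groups in the 2 counts was not tested. At least a 2-fold difference between the Teqing groups was seen in 26 members (8.67%) with Teqing3 higher and in 26 (8.67%) with Teqing2 higher, beside 5.94% and 4.86% of the 12154 genes.

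The YIL25 and Teqing1 libraries had no part in the rule. They were first set beside the pOE libraries, in a table normalized separately, as a description with no test. The pOE side of these counts is the value by which the members were chosen, so their distance from the share of all genes largely restates the selection, and only the Teqing1 and YIL25 levels are new. Of 90 members with at least 5 FPKM in the lowest Teqing1 library, 85 (94.4%) had that value more than 2 times the highest pOE library, beside 9.01% of all such genes. The same comparison of YIL25 with pOE held in 83 of 89 members (93.3%), beside 14.6% of such genes. The 5 members that missed it against Teqing1 were Os03g0176300, Os01g0727700, Os01g0314100, Os02g0671100 and Os01g0130000, chosen for mention after their values were seen. A further 6 members were below 5 FPKM in a Teqing1 library, among them ENSRNA049475964, which is listed at 0 in every YIL25 and Teqing1 library and was not tested.

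In YIL25, which keeps its wild rice BOC1 allele, more members were called higher than lower against Teqing1. Of 95 members tested, 29 (30.5%) were called higher at a fold change of 2 and a limma adjusted p under 0.001, beside 8.41% of the 8196 genes tested, and 9 (9.47%) were called lower, beside 12.7%. The median log2 fold change was 0.47, beside -0.13 over all genes, and 69.5% of members were above 0, beside 43.4%. As for pCPL, the genes tested were not matched to the members by level. Median-of-ratios scaling shifted the median of all genes by 0.15, to 0.02, and the background to 10.1% higher and 9.79% lower, while 33 members were called higher and 9 lower. On chromosome 1, where YIL25 is not reported to carry a wild rice segment, 14 of 48 members (29.2%) were called higher, beside 6.11% of genes there, and 3 (6.25%) were called lower, beside 13.1%. Members on chromosomes 2 and 3 may lie in a wild rice segment. In a segment, a response of the line and a difference of the wild allele, or of how its reads map, cannot be told apart.

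The largest rise in YIL25 was that of Os01g0357400 (chromosome 1, 14459951 to 14461690), at 218, 206 and 197 FPKM in YIL25, against 22.0, 20.8 and 24.4 FPKM in Teqing1. Its log2 fold change was 3.16 (SE 0.06, adjusted p = 2.45e-07 by limma). The same gene had 0.599, 0.831 and 0.492 FPKM in pOE and 15.7, 15.6 and 18.0 FPKM in pCPL, against 29.4, 29.5 and 30.8 FPKM in Teqing3 and 8.63, 8.89 and 9.20 FPKM in Teqing2. It was thus lowest in pOE and highest in YIL25, with pCPL inside the range of Teqing. The aldehyde dehydrogenase Os02g0730000 came second, followed by Os02g0186100 (2.39), Os02g0576600 (2.24), Os03g0176300 (2.07) and Os01g0313600 (2.06). Os03g0176300 overlaps another gene model, Os03g0176200, which was at 50.1 FPKM in Teqing3, so its own level is uncertain. The most abundant member, Os01g0200700, had 12797, 12237 and 12779 FPKM in YIL25, against 5080.0, 5480.1 and 5238 FPKM in Teqing1, a log2 fold change of 1.26 (SE 0.04, adjusted p = 6.92e-07 by limma).

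Of these genes, Os01g0313600, Os02g0186100 and Os02g0576600 were lower in pCPL than in Teqing2 and Teqing3, as they were in pOE by selection. All were higher in YIL25 than in Teqing1. The levels of Os01g0313600 are given further below. Os02g0186100 (chromosome 2, 4791404 to 4793451) had 25.6, 28.4 and 26.5 FPKM in YIL25, against 4.62, 3.63 and 4.67 FPKM in Teqing1. In the other tables it had 0.155, 0.0248 and 0.0716 FPKM in pOE and 3.22, 2.88 and 3.49 FPKM in pCPL, against 8.73, 8.21 and 6.72 FPKM in Teqing3 and 12.7, 13.9 and 14.4 FPKM in Teqing2. Levels set across the tables carry their separate normalization, and each fold change is taken within a table. Os02g0576600 (chromosome 2, 22146429 to 22150147) had 30.6, 29.8 and 29.4 FPKM in YIL25, against 5.57, 6.08 and 4.96 FPKM in Teqing1. In the other tables it had 0.572, 0.877 and 0.865 FPKM in pOE and 3.30, 4.06 and 4.28 FPKM in pCPL, against 10.2, 11.6 and 9.80 FPKM in Teqing3 and 31.7, 32.2 and 31.8 FPKM in Teqing2. The YIL25 libraries of Os02g0576600 were thus just below those of Teqing2. In Os02g0186100 and Os02g0576600 the Teqing1 libraries were below those of Teqing2 and Teqing3. The part of a low Teqing1 in these rises was not tested.

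The 9 members that fell in YIL25 included genes that were almost off. Os02g0583700 had 0.507, 0.0732 and 0.317 FPKM in YIL25, against 13.9, 14.4 and 14.0 FPKM in Teqing1, a log2 fold change of -3.55 (SE 0.13, adjusted p = 1.84e-06 by limma). Its YIL25 libraries were within the range of its pOE libraries or just above it. Os02g0565150 (chromosome 2, 21457944 to 21458344) had 2.26, 1.90 and 3.73 FPKM in YIL25, against 38.0, 43.8 and 40.5 FPKM in Teqing1. Os02g0519700 (chromosome 2, 18908878 to 18909479) had 17.5, 15.3 and 14.8 FPKM in YIL25, against 146, 131 and 139 FPKM in Teqing1. None of these 3 genes was called in pCPL. The neighbouring genes Os01g0949800 and Os01g0949900 (chromosome 1, 41844012 to 41845305 and 41846413 to 41847329) fell together, by log2 fold changes of -2.64 and -2.61. Os01g0949800 had 3.57, 4.09 and 3.58 FPKM in YIL25, against 26.2, 31.1 and 28.4 FPKM in Teqing1. Os01g0949900 had 3.64, 4.53 and 4.22 FPKM in YIL25, against 32.5, 29.3 and 29.1 FPKM in Teqing1.

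The calls in pCPL and in YIL25, which share no library, were set side by side for the 95 members tested in both. Only 2 members were called higher in both, the aldehyde dehydrogenase Os02g0730000 and the LEA gene Os01g0705200, and none was called lower in both. These 2 stand on the study's list, which asked for this direction in these same libraries. In 7 members the call was lower in pCPL and higher in YIL25, and in 1, Os02g0115700, higher in pCPL and lower in YIL25. In 20 members the call was higher in YIL25 alone and in 8 lower in YIL25 alone. In pCPL alone, 10 members were called higher and 14 lower, and 33 were called in neither. The same calls were not counted over all genes tested in both, so these counts cannot be read as many or few. The log2 fold changes had the same sign in 38 of the 95 members, beside 3602 of all 5559 genes tested in both. Across these 95 genes the log2 fold changes had a Pearson r of -0.20 and a Spearman rho of -0.18, beside 0.35 and 0.37 over the 5559 genes tested in both. Genes of a library are not independent replicates, so these are descriptions. The call of Os02g0115700 in pCPL was lost without pCPL replicate 1, at a log2 fold change of 0.996. It had 93.8, 88.9 and 86.7 FPKM in pCPL, against 42.6, 43.9 and 44.1 FPKM in Teqing2, and 11.9, 11.4 and 13.0 FPKM in YIL25, against 75.1, 72.7 and 78.8 FPKM in Teqing1. The widest opposite case was Os01g0313600 (chromosome 1, 11793851 to 11795359). It had 6.91, 8.52 and 7.74 FPKM in pCPL, against 101, 101 and 103 FPKM in Teqing2, and 159.8, 163 and 150.3 FPKM in YIL25, against 37.9, 37.8 and 35.4 FPKM in Teqing1.

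**Figure D5:**
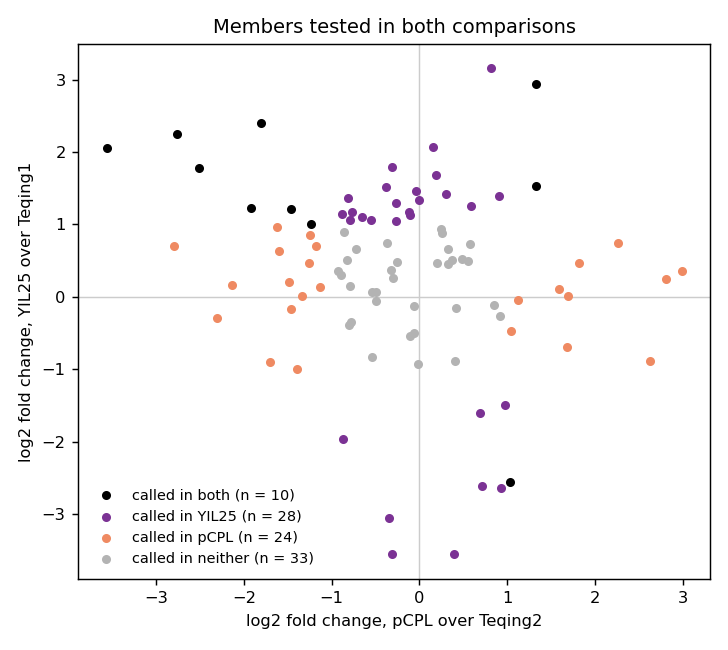
Log2 fold change, on the log2(FPKM + 1) scale, of YIL25 over Teqing1 (vertical axis) against that of pCPL over Teqing2 (horizontal axis) for the 95 members tested in both, with 1 point per gene coloured by where it was called. Of the 10 genes called in both comparisons (black), 7 lie at the upper left, 2 at the upper right and 1 at the lower right.

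By position, the members were spread over all 12 chromosomes, as 300 of the 12154 genes with at least 5 FPKM in Teqing. The highest share was on chromosome 10 (23 of 574 such genes, 4.01%) and the lowest on chromosome 8 (12 of 815, 1.47%). Among 21901 ordered genes, 28 members stood in 14 pairs of neighbours, and no run of 3 was found. Pairs in other sets of genes were not counted, so the 14 cannot be read as many or few. Whether the genes of a pair share reads through similar sequence was not tested. Apart from the pairs on chromosomes 1, 10 and 11 already given, a pair on chromosome 11, Os11g0239500 and Os11g0239900, was called lower in pCPL in both genes, and so was a pair on chromosome 2, Os02g0186100 and Os02g0186200. Overlap with another gene model was found in 34 members, and reads in such overlaps cannot be assigned with certainty where the counting does not use strand.

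At the edge of the set, the members with the smallest ratio were Os01g0159000, Os04g0629500 and Os09g0491740, and the genes just outside were Os06g0603000, Os07g0197100 and Os05g0569300. The highest pOE library was at 11.0 FPKM for Os01g0159000, against 24.6 FPKM in the lowest Teqing library. Os04g0629500 had 35.3 FPKM in the highest pOE library, against 74.6 FPKM in the lowest Teqing library, and Os09g0491740 had 94.5 FPKM, against 196 FPKM. Outside the limit, Os06g0603000 had 29.2 FPKM in the highest pOE library, against 61.7 FPKM in the lowest Teqing library, Os07g0197100 had 3.62 FPKM, against 9.45 FPKM, and Os05g0569300 had 12.6 FPKM, against 27.9 FPKM. These 3 and the other 94 genes left out also met the ratio of 2 and were removed only by the limit of 300.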

How the data were processed

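RNA was taken from rice callus subcultured for 21 days, in 6 groups of 3 biological replicates (18 libraries). According to the study's methods and the submitters' processing notes, the authors mapped paired-end reads to IRGSP-1.0 with TopHat2 and deposited FPKM per gene in 1 table per comparison. CASAVA 1.8, bcl2fastq and Cufflinks are also named. Each table was normalized separately. The deposited fold changes and p-values were not used.

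The members, gene lists and tests were chosen with earlier results of these data known. The values log2(FPKM + 1) of a line and of its own Teqing group were compared in R 4.3.3 by limma 3.58.1 (trended prior). Genes averaging more than 1 FPKM in at least 1 of the groups were tested, and p-values were adjusted over all of them by Benjamini and Hochberg. The fit was tested on simulated data. Calls needed an adjusted p under 0.001 and at least a 2-fold change on that scale. Members named are the 10 with the largest ratio, the 6 most abundant in Teqing, the 6 largest rises and falls in pCPL and in YIL25 with groups that do not overlap, up to 4 per word list, the described members and the 3 on each side of the limit. Word lists were searched in the descriptions of the study's supplementary gene lists. Matching only at the start of words was chosen after the first hits had been seen.

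FPKM times gene length gave whole reads for 100.0% of low values within 0.05 reads. The library size behind the FPKM was 1.063 to 1.07 times the reads over genes in pOE and 0.947 to 0.956 times in Teqing3. This makes pOE values lower and Teqing3 values higher than plain scaling would. Alternatives were other scaling, filters, pseudocounts and thresholds, limma-voom on recovered reads, a replicate block, and each library left out. Promoter motifs and sequences were not analysed here.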

Additional observations from a re-analysis of the deposited data

Results flagged for a closer look

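In 8 members the calls in pCPL and YIL25 went opposite ways, with every library of each line on its own side of its Teqing libraries. Opposite calls among all genes tested in both were not counted, so the 8 cannot be read as many or few. The difference between the comparisons was not tested, because the 2 tables were normalized separately. Os01g0313600 had log2 fold changes of -3.56 in pCPL over Teqing2 and 2.06 in YIL25 over Teqing1, a difference of 5.62. Os02g0186100 had log2 fold changes of -1.81 in pCPL over Teqing2 and 2.39 in YIL25 over Teqing1, a difference of 4.20. Os02g0576600 had log2 fold changes of -2.76 in pCPL over Teqing2 and 2.24 in YIL25 over Teqing1, a difference of 5.0. Os01g0750500 had log2 fold changes of -2.52 in pCPL over Teqing2 and 1.78 in YIL25 over Teqing1, a difference of 4.30. Os01g0923000 had log2 fold changes of -1.92 in pCPL over Teqing2 and 1.22 in YIL25 over Teqing1, a difference of 3.14. Os01g0314100 had log2 fold changes of -1.24 in pCPL over Teqing2 and 1.01 in YIL25 over Teqing1, a difference of 2.25. Os01g0266800 had log2 fold changes of -1.46 in pCPL over Teqing2 and 1.22 in YIL25 over Teqing1, a difference of 2.68. Os02g0115700 had log2 fold changes of 1.03 in pCPL over Teqing2 and -2.55 in YIL25 over Teqing1, a difference of -3.58. Of these, 7 were lower in pCPL and higher in YIL25, and Os02g0115700 was the reverse. Os02g0186100 and Os02g0115700 may lie in the wild rice segment of YIL25 on chromosome 2, whose limits were not used here. If so, a response of the line and a difference of the wild allele cannot be told apart in them. The call of Os01g0314100 in YIL25 was lost without YIL25 replicate 3, and that of Os02g0115700 in pCPL without pCPL replicate 1. Their levels in pOE were low by the choice of members.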

How the results depend on the processing

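With a ratio of 3 in place of 2, 221 genes met the rule instead of 397, of which 220 were members. Median-of-ratios scaling of the 12 libraries gave 375 genes and kept 298 members, and a minimum of 10 FPKM gave 299 and kept 241. Scaling by recovered reads over genes, chosen after seeing the data, gave 342 and kept 284. Leaving out 1 library at a time gave 405 to 429 genes. At an adjusted p under 0.05 in limma with no fold threshold, 88 members were higher and 182 lower in pCPL, and 57 were higher and 26 lower in YIL25. The share of all genes passing this looser threshold was not counted, so these counts are not a result about the members. On chromosome 1 only, also chosen after seeing the data, 14 were higher and 3 lower in YIL25. Median-of-ratios scaling left 43 higher and 82 lower in pCPL, all 82 among the 89, and put the median log2 fold change of members in YIL25 at 0.64. Leaving out 1 library at a time gave 40 to 44 higher and 86 to 88 lower in pCPL, and 28 to 30 higher and 9 to 10 lower in YIL25. The call of Os02g0115700 in pCPL was lost without pCPL replicate 1, at a log2 fold change of 0.996. Limma-voom on recovered reads called 43 higher and 89 lower in pCPL.

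Replicates with the same number did not deviate together (correlations of -0.043 to 0.046), so the numbers do not pair the samples. With the replicate block, 42 members were higher and 89 lower in pCPL, and 28 were higher and 9 lower in YIL25. A limit of the set is that Teqing2 was used both by the rule and in the comparison with pCPL, and that 204 members were not analysed here in YIL25.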
